A study of Mus musculus with 17 samples.

Results

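Penk is the mouse gene for proenkephalin, and its row was followed in RNA sequencing libraries of regulatory T cells (Tregs) sorted from spleens of the diabetes-prone NOD strain. It is 1 of 47643 rows of the deposited gene table. The row was chosen by its level in these libraries, which was above that of controls in both altered genotypes and higher in transgenic than in knockout libraries. Its differences between the groups are therefore given as a description, with no test.

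The transgenic group held 6 libraries of genotype NOD-60A Tg+, mice that overexpress Nfkbid. Its product is a nuclear member of the IkB family, which acts on NF-kB factors at their target genes. The knockout group held 5 libraries of genotype NOD-Nfkbid-KO, and the control group 6 libraries of NOD mice. Mice of all 3 groups carried a Foxp3-GFP reporter, and GFP+ cells were sorted after enrichment of CD4+ T cells. Each transgenic library came from 1 sample, whereas each knockout or control library was a pool of 2, so genotype and pooling cannot be told apart in comparisons with the transgenic group. The age and sex of the mice, the promoter of the transgene and the extent of the deletion are not stated in the labels. All libraries carry the same batch label.

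Proenkephalin is the precursor of the enkephalins, short opioid peptides that bind the delta and mu opioid receptors. Prohormone convertases cut the precursor at pairs of basic residues, carboxypeptidases trim the ends, and peptidases on cell surfaces break the released peptides down. The gene is best known from neurons and the adrenal medulla, and mouse Tregs are among the immune cells in which its transcript has been described. In neurons, its promoter is a known target of CREB and AP-1 factors.

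On GRCm38, Penk lies on the minus strand at chr4:4133531-4138819 (ENSMUSG00000045573). The transcript Penk-201 has 2 exons and 804 coding bases before the stop codon. It codes for 6 copies of Met-enkephalin and 1 of Leu-enkephalin, and all 7 lie in the last exon. They are shown because they are what makes the transcript an enkephalin message. Each line gives the coding strand from the GENCODE M21 transcript, with the 15 bases of the pentapeptide in capitals and the neighbouring codons in lower case.
Met copy 1: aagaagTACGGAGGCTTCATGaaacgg
Met copy 2: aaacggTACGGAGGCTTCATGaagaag
Met copy 3: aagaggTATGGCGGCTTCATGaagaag
Met copy 4: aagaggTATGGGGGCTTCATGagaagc
Met copy 5: aagcgcTACGGGGGCTTCATGagaagg
Leu copy 6: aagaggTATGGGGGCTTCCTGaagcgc
Met copy 7: aaaagaTACGGGGGCTTTATGcggttc

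On the chromosome, copy 1 is at chr4:4134328-4134354 and copy 7 at chr4:4133842-4133868. All 7 copies have 2 basic residues before the pentapeptide, and 5 also have 2 after it. Copies 4 and 7 lack the pair after it. The first 2 copies have the same pentapeptide bases and share the pair of basic codons between them, so 6 different codings occur among the 7. The table gives 1 value per gene, and so nothing on which part of the transcript the reads cover.

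The Penk row was highest in transgenic libraries, intermediate in knockout libraries and lowest in controls, with no overlap between groups. Levels are given as CPM, the count scaled to the size of the library, here with TMM factors that adjust for differences in composition. The row stood at 479.2, 457.8, 422.5, 409.3, 459.2 and 536.5 CPM in transgenic replicates 1 to 6. In knockout replicates 1 to 5 it stood at 127.6, 227.8, 179.0, 120.2 and 260.0 CPM. In control replicates 1 to 6 it stood at 86.85, 63.26, 67.34, 76.22, 64.19 and 59.36 CPM. The 6 transgenic libraries lay close together, the knockout libraries were the most spread, and control replicate 1 was the highest control.

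The means were 460.7 ± 45.18 CPM in transgenic (SD, n = 6), 182.9 ± 61.16 CPM in knockout (SD, n = 5) and 69.54 ± 10.21 CPM in control libraries (SD, n = 6). The knockout mean was 39.7% and the control mean 15.09% of the transgenic mean. For transgenic against control, the ratio of means was 6.63 and the fitted log2 fold change 2.73 (SE 0.167). For knockout against control, the ratio was 2.63 and the log2 fold change 1.39 (SE 0.167). For transgenic against knockout, the ratio was 2.52 and the log2 fold change 1.33 (SE 0.167). Over all 9986 rows tested, the median log2 fold change was -0.01, -0.02 and 0.00 in the same order of comparisons.

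**Figure D1:**
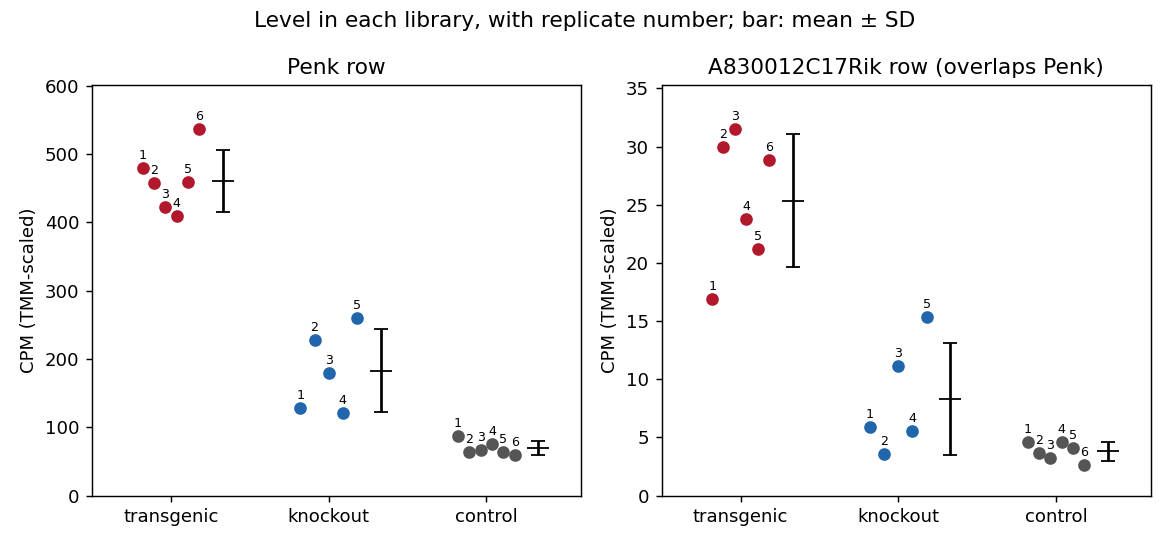
Level in CPM (vertical axis, TMM-scaled) of the Penk row and of the A830012C17Rik row that overlaps it, by group. Points are libraries with their replicate numbers, and bars are means ± SD (n = 6 transgenic, 5 knockout, 6 control). The lowest transgenic library of the Penk row, at 409.3 CPM, lies above the highest knockout library, at 260.0 CPM, and all knockout libraries lie above the highest control, at 86.85 CPM.

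The closest pair of libraries between transgenic and control differed 4.71-fold. The closest pair between transgenic and knockout differed 1.58-fold, and between knockout and control 1.38-fold. Only 2 of the 9986 rows tested, or 0.02%, had every transgenic library above every knockout library and every knockout library above every control. They were the Prmt5 row and the Penk row itself, which was chosen for this order. Penk ranked 70th by log2 fold change from the highest for transgenic against control, 52nd for knockout against control and 288th for transgenic against knockout.

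The depth behind these values was 1387.39 to 1806.34 expected counts per transgenic library, 430.39 to 793.68 per knockout library and 203.69 to 418.34 per control library. An expected count is an estimated number of reads, in which a read that fits several transcripts is divided among them. The coefficient of variation was 9.81% in transgenic, 33.4% in knockout and 14.7% in control libraries. Counting error alone would give 2.6%, 4.15% and 6.31% in the same order of groups if every count were an independent molecule, which is not known. The biological coefficient of variation of the row was 0.195 in the fit, against 0.241 for all rows in common.

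Within the knockout group, replicates 2, 3 and 5 stood above replicates 1 and 4. The Penk level was 179.0 to 260.0 CPM in replicates 2, 3 and 5, a mean of 222.3 CPM and 3.2 times the control mean. It was 120.2 and 127.6 CPM in replicates 4 and 1, a mean of 123.9 CPM and 1.78 times the control mean. Replicates 2, 3 and 5 also had the fewest rows above 0, at 13476 to 13802, against 15039 and 15931 in the other knockout libraries. Their mitochondrial genes held 25.31 to 28.16% of counts, against 22.04 to 22.55% in knockout replicates 1 and 4.

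The same split, with knockout replicates 2, 3 and 5 all above 1 and 4, was seen in 21.6% of all rows tested. With only replicates 1 and 4 kept, a choice made after the values were seen, the log2 fold change was 0.83 for knockout against control and 1.90 for transgenic against knockout. Both knockout libraries still lay above all 6 controls. With total counts in place of TMM factors, the means were 457.2 ± 51.82 CPM in transgenic (SD, n = 6), 169.2 ± 41.1 CPM in knockout (SD, n = 5) and 72.3 ± 11.3 CPM in control libraries (SD, n = 6), again without overlap. The part of library quality in the spread among knockouts was not tested.

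**Figure D2:**
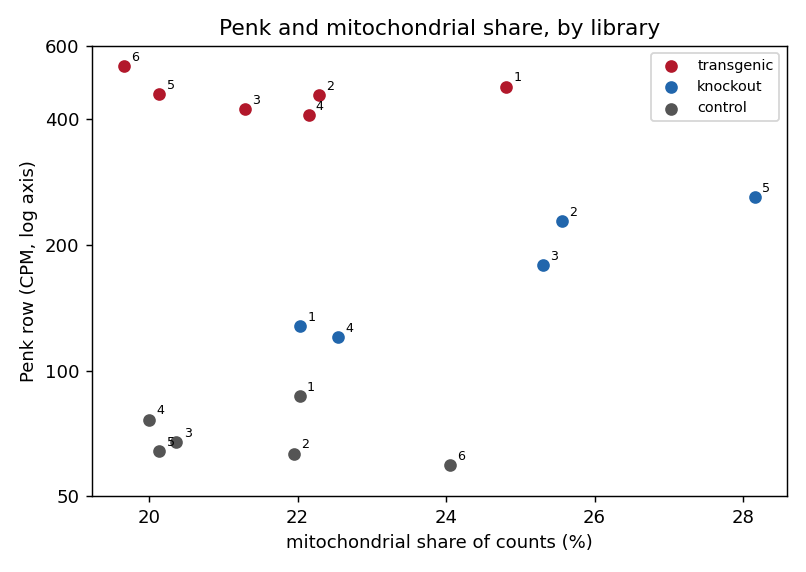
Penk level in CPM (vertical axis, TMM-scaled, log scale) against the share of counts in mitochondrial genes in percent (horizontal axis), one point per library, coloured by group. Knockout replicates 2, 3 and 5 lie to the right, at 25.31 to 28.16%, while the transgenic library with the largest share, at 24.81%, is near its group's mean and the control with 24.05% has the lowest Penk level.

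Outside the knockouts, the library with the largest mitochondrial share of its group was compared under both scalings. Its place by Penk level depended on the scaling in the transgenic group and did not in the controls. With TMM factors, transgenic replicate 1 had 24.81% and a Penk level of 479.2 CPM, against a transgenic median of 458.5 CPM. Control replicate 6 had 24.05% and the lowest Penk level of all, 59.36 CPM. With total counts in place of TMM factors, they stood at 412.1 and 57.61 CPM, each the lowest of its group. A link between Penk and the mitochondrial share was not tested. The identifiers in the column names of control replicates 1 and 2, with 86.85 and 63.26 CPM, lie among those of the transgenic libraries. The other 4 controls had 59.36 to 76.22 CPM. The identifiers of the knockout libraries form a run of their own, with no transgenic or control library inside it. Genotype and run of identifiers therefore cannot be told apart in comparisons with the knockout group. The labels do not explain the identifiers, and a link between them and the Penk level was not tested. In sorted bulk samples, more cells that use a gene and more transcript per cell cannot be told apart.

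The exons of A830012C17Rik (ENSMUSG00000085996), a gene on the opposite strand at chr4:4138321-4188703, share 233 bases with those of Penk. Its count and that of Penk added to a whole number, within 0.01, in 17 of 17 libraries, although neither row alone was whole. It was the only row of the table with that property, so the 2 rows divide reads between them. The A830012C17Rik row held 1.55 to 6.97% of their sum. Whether counting used the strand is not stated, so reads of the pair cannot be told apart in the shared bases.

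The A830012C17Rik row stood at 16.93, 30.0, 31.52, 23.75, 21.18 and 28.82 CPM in transgenic replicates 1 to 6. It stood at 5.9, 3.58, 11.12, 5.59 and 15.39 CPM in knockout replicates 1 to 5, and at 4.57, 3.66, 3.25, 4.62, 4.12 and 2.62 CPM in control replicates 1 to 6. Transgenic libraries again lay above all others, but knockout replicate 2 lay among the controls. The log2 fold change was 2.72 for transgenic against control, 1.11 for knockout against control and 1.61 for transgenic against knockout. The row was part of the edgeR fit, but because it shares reads with Penk its test results are not reported. Adding both rows gave log2 fold changes of 2.73, 1.38 and 1.35, close to those of Penk alone.

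Many rows of this table do not hold the level known for the gene they name, so the identity of the Penk row was examined from its surroundings. B2m, a subunit of the class I molecules of almost every cell, was at 0 in all libraries, and Actb, the gene of beta-actin, had at most 7 counts. Of 72 ribosomal protein rows that start beyond 10 Mb of their chromosome, 49 had a mean count under 10 and 1 reached 1000. Of the 4 such rows in the first 10 Mb, 3 reached 1000 and none was under 10. Penk starts at 4.13 Mb, and the limit of 10 Mb was chosen after the values were seen.

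The nearest exon of any gene but the overlapping one was that of Sdr16c6, at 56.01 kb toward the chromosome start. On the other side it was that of Gm11780, at 389.4 kb. The exons of Penk were moved along the chromosome in 400 positions of up to 20 kb to either side. In none of the 400 positions did they meet an annotated exon of a gene other than Penk or A830012C17Rik. At least 67 bases, the length of a read, remained on the exons of Penk in 52 positions, which included every move of up to 0.9 kb. A displacement larger than 20 kb was not examined, and whether the reads of the row are those of Penk was not tested on sequence.

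**Figure D3:**
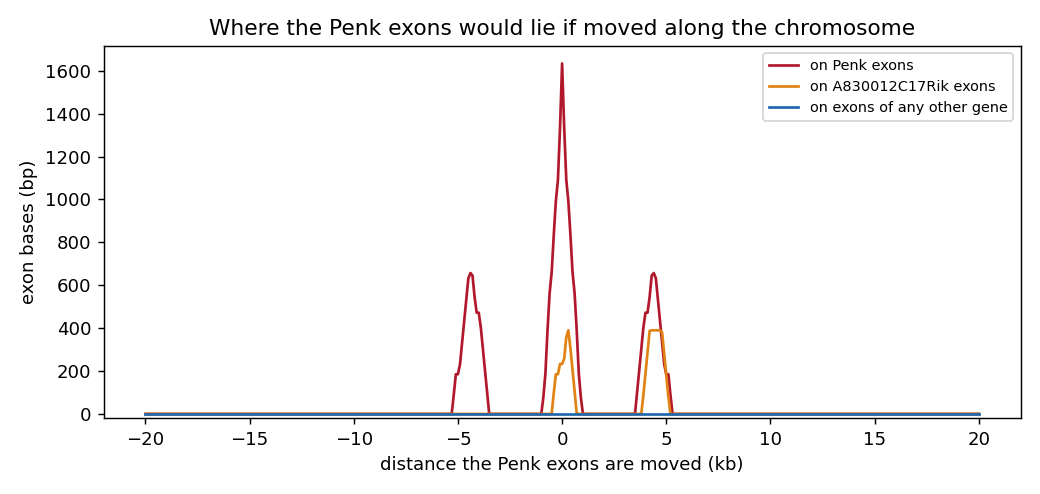
Exon bases (vertical axis) of Penk, of A830012C17Rik and of any other gene that the Penk exons would cover if moved by the distance on the horizontal axis, in kb. The line for other genes stays at 0 over all 400 positions, which was fixed in advance, because the nearest such exon is 56.01 kb away.

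Of 33 rows of the table that start within 1 Mb of Penk, 11 were tested. Beside Penk, A830012C17Rik and AI838599, the other 8 were Tmem68, Tgs1, Lyn, Rps20, Plag1, Chchd7, Gm11808 and Impad1. AI838599 passed edgeR's quasi-likelihood test at a Benjamini-Hochberg adjusted p of 0.05 in all 3 comparisons, and none of the 8 did in any. Over all rows tested, 5.23% were called higher and 2.17% lower for transgenic against control. These shares were 0.881% and 1.01% in knockout against control, and 6.34% and 4.33% in transgenic against knockout. At such shares few or no calls would be seen among 8 rows of any kind. For transgenic against control, 4 had an unadjusted p under 0.05, and neither DESeq2 nor limma with voom called any. For knockout against control, 1 had an unadjusted p under 0.05, DESeq2 called 1 and limma with voom 0. For transgenic against knockout, 1 had an unadjusted p under 0.05 and both other tools called 0. The share of all rows with an unadjusted p under 0.05 is not given, here or for the lists below. Nothing is therefore read from counts at that threshold.

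The log2 fold changes of these 8 rows ran from -0.81 to 0.32 for transgenic against control, from -0.26 to 0.35 for knockout against control and from -0.74 to 0.20 for transgenic against knockout. Rps20, which codes for a protein of the small ribosomal subunit, averaged 1588 CPM in transgenic, 1385 CPM in knockout and 1276 CPM in control libraries. Impad1, which codes for a nucleotide phosphatase of the Golgi, averaged 372.6, 391.2 and 306.7 CPM in the same order of groups. Its log2 fold change was 0.28 for transgenic against control (edgeR adjusted p = 0.097) and 0.35 for knockout against control (edgeR adjusted p = 0.073).

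The AI838599 row of chromosome 4, which starts at 3.24 Mb, differed between all groups, and its order was not that of Penk. The level averaged 75.84 ± 15.39 CPM in transgenic (SD, n = 6), 0.397 ± 0.624 CPM in knockout (SD, n = 5) and 16.5 ± 3.56 CPM in control libraries (SD, n = 6). The log2 fold change of AI838599 was 2.19 for transgenic against control (edgeR adjusted p = 5.4e-07) and -5.21 for knockout against control (edgeR adjusted p = 2.1e-07).

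**Figure D4:**
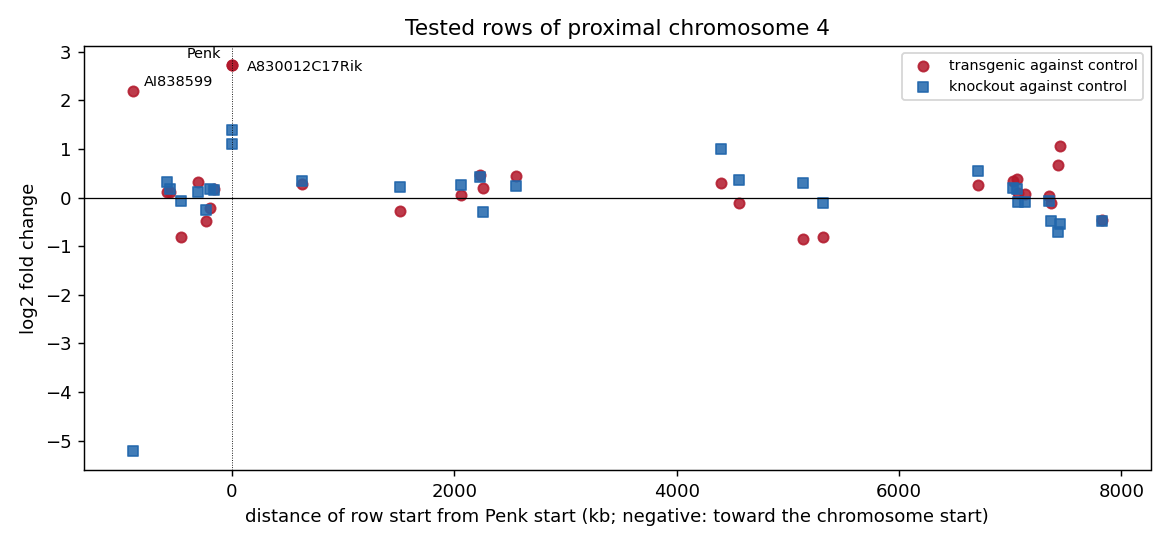
Log2 fold change (vertical axis) of tested rows near the start of chromosome 4, for transgenic against control and knockout against control. The horizontal axis is the distance of their start from that of Penk in kb, and it runs out to a row at 7825 kb. Penk and A830012C17Rik stand at 2.73 and 2.72 for transgenic against control, and AI838599 moves in opposite directions. The 8 other neighbours within 1 Mb lie between -0.81 and 0.35. Some rows further away lie outside that range, such as Fsbp at 1.07 for transgenic against control.

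Rows with a pattern like that of Penk were ranked by Pearson r with Penk over the 17 libraries, on log2 CPM with a prior count of 2. A floor of 3 on the average log2 CPM left 5728 rows, with a median r of -0.02. The libraries share their group, so r mostly reflects differences between groups. The highest values were 0.951 for Lif, 0.936 for Mfap5, 0.933 for Gal3st2c, 0.931 for Sh3gl3 and 0.93 for Zbtb25. Prmt5 followed at 0.928, Insrr at 0.927, Blvrb at 0.925, Tpd52 at 0.922 and Pstpip1 at 0.913. Lif codes for leukemia inhibitory factor, a cytokine of the interleukin 6 family, and Prmt5 for an arginine methyltransferase.

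After the group means were taken out, r ran from -0.10 for Prmt5 to 0.759 for Insrr. In 9 of the 10 rows, all but Prmt5, knockout replicates 2, 3 and 5 lay above 1 and 4, as they did in 21.6% of all rows. Penk has this split itself and the 10 rows were picked for likeness to it, so their count is only a description. With Spearman's rho in place of r, 5 of the 10 rows were again in the first 10, and by deviations from group means 0 were. Only the Lif and Tpd52 rows start in the first 10 Mb of their chromosomes, so the symbols of the other 8 rows name the row and not with certainty the gene.

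**Figure D5:**
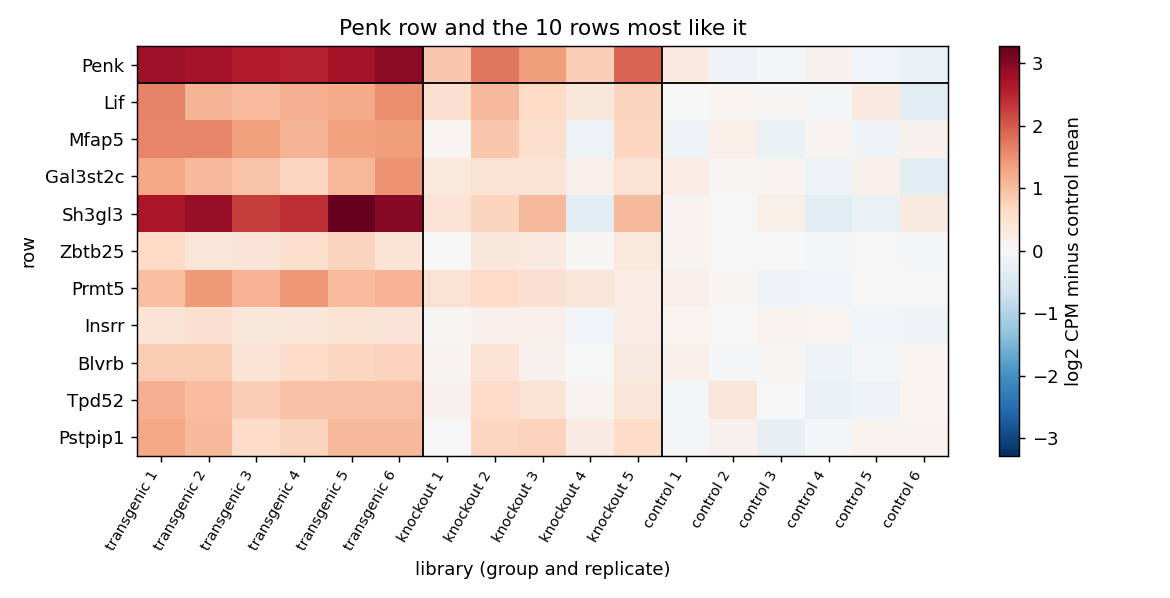
Log2 CPM minus the control mean (colour) of the Penk row and the 10 rows most like it, with rows down the page and the 17 libraries across, by group and replicate. Sh3gl3 and Penk differ most between transgenic and control libraries, with log2 fold changes of 2.88 and 2.73, and most rows are higher in knockout replicates 2, 3 and 5 than in 1 and 4.

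Beside Penk, which was chosen for this pattern, the rows that edgeR called higher in all 3 comparisons were Gm16587, Gm44014, Lif and Prmt5. With Penk they make 0.0501% of the 9986 rows, from which nothing is read about Penk. The Lif row stood at 56.31, 39.28, 37.28, 41.05, 42.05 and 51.99 CPM in transgenic replicates 1 to 6. It stood at 26.01, 37.76, 28.23, 23.2 and 30.12 CPM in knockout replicates 1 to 5, and at 17.66, 18.56, 18.39, 17.32, 22.38 and 13.68 CPM in control replicates 1 to 6. Knockout replicate 2 overlapped the transgenic group, and no knockout library overlapped the controls.

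The log2 fold change of Lif was 1.31 for transgenic against control, 0.69 for knockout against control and 0.62 for transgenic against knockout. For Prmt5 these were 1.19, 0.46 and 0.73, with means of 457.5 ± 58.66 CPM in transgenic (SD, n = 6), 275.7 ± 26.8 CPM in knockout (SD, n = 5) and 200.2 ± 14.85 CPM in control libraries (SD, n = 6). All 3 differences of Penk were larger than those of Lif and of Prmt5. These rows were picked for the pattern, so their values are a description.

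The genes that make, cut, bind and break down opioid peptides gave 0 to 3 calls in a comparison. Of 34 genes on 3 lists (opioid peptides and receptors, propeptide processing, and enkephalin-degrading peptidases), 19 were tested. For transgenic against control, edgeR called 0 higher and 1 lower, where 5.23% of all rows were called higher and 2.17% lower. At an unadjusted p under 0.05 there were 3, and DESeq2 called 2. For knockout against control, edgeR called 0 in either direction, where 0.881% of all rows were called higher and 1.01% lower. At an unadjusted p under 0.05 there was 1, and DESeq2 and limma with voom called 0. For transgenic against knockout, 1 was called higher and 2 lower, where 6.34% of all rows were called higher and 4.33% lower. With 19 rows, none of these counts sets the lists apart.

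Among the other opioid precursors, Pdyn, the gene of prodynorphin, had 17.51 to 49.67 expected counts per library, or 6.67 to 16.93 CPM in transgenic, 8.51 to 13.02 CPM in knockout and 5.06 to 14.55 CPM in control libraries. The log2 fold change of Pdyn was 0.35 for transgenic against control (edgeR adjusted p = 0.48). Pomc, the gene of the beta-endorphin precursor, had 0 to 9 counts and Pnoc, that of pronociceptin, 0 to 1. The rows of the receptor genes Oprd1 (delta) and Oprm1 (mu) each had 0 to 11 counts per library and did not pass the filter on low counts. Oprk1, the kappa receptor gene, had 0 to 4 counts and Oprl1, the nociceptin receptor gene, 0 to 6.

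Ogfrl1, a gene related in sequence to the opioid growth factor receptor, was higher in transgenic than in knockout libraries by a log2 fold change of 1.60 (edgeR adjusted p = 0.027), a call kept in 24 of 29 alternative settings and lost, among others, without knockout replicate 2 or transgenic replicate 2. Its level was 4.3 to 7.42 CPM in transgenic, 0 to 2.79 CPM in knockout and 1.69 to 3.32 CPM in control libraries. The transgenic libraries lay above all others, but transgenic against control did not pass the test (log2 fold change 1.25, edgeR adjusted p = 0.074). Ogfrl1 was called there in 4 of 29 alternative settings, among them DESeq2 (DESeq2 adjusted p = 0.015).

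Of 8 processing rows tested, Scg5 was lower in transgenic libraries. Scg5 codes for the chaperone 7B2 of the convertase PC2. It averaged 3.41 ± 0.827 CPM in transgenic (SD, n = 6), 7.24 ± 2.67 CPM in knockout (SD, n = 5) and 7.53 ± 2.58 CPM in control libraries (SD, n = 6). The log2 fold change was -1.14 for transgenic against control (edgeR adjusted p = 0.018) and -1.08 for transgenic against knockout (edgeR adjusted p = 0.025). The first call was lost without control replicate 4 and without a filter on low counts, and the second in 10 of 29 settings. Pcsk2, the gene of PC2 itself, ranged over 142.2 to 227.0 CPM in transgenic, 144.8 to 286.8 CPM in knockout and 123.6 to 203.1 CPM in control libraries, and the groups overlapped. The Scg5 row starts at 113.8 Mb and the Pcsk2 row at 143.5 Mb, so their symbols name the row and not with certainty the gene. Furin, which codes for a convertase of the secretory pathway, and Cpe, the gene of carboxypeptidase E, passed no test, and Pcsk1, the gene of PC1/3, was at 0 in most libraries.

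Of the 7 peptidase rows tested edgeR called 0 in any comparison, a count too small to read against the 5.23%, 0.881% and 6.34% of all rows called higher, and their median log2 fold changes were -0.08, 0.13 and -0.29. Unadjusted p was under 0.05 for 0 rows for transgenic against control, 0 for knockout against control and 1 for transgenic against knockout, and DESeq2 and limma with voom called 0 in each. Dpp3, an enkephalin-degrading dipeptidyl peptidase whose row starts in the first 10 Mb, averaged 19.55 CPM in transgenic, 21.39 CPM in knockout and 21.04 CPM in control libraries. Of the 126 genes on the 9 pathway lists, 11 start in the first 10 Mb and 7 of these were tested. For list members beyond 10 Mb, the symbol names the row and not with certainty the gene.

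Among CREB, ATF and AP-1 factors, the Crem row was higher in transgenic libraries. Crem codes for a cAMP-responsive factor of the CREB family and lies at the start of its chromosome, at 3.27 Mb. Its lowest, median and highest levels were 116.1, 127.4 and 146.5 CPM in transgenic libraries. They were 64.08, 85.81 and 137.5 CPM in knockout libraries and 66.34, 86.48 and 95.31 CPM in controls. The transgenic and control libraries did not overlap, and the knockout libraries spread across both.

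The log2 fold change of Crem was 0.63 for transgenic against control (SE 0.14, edgeR adjusted p = 0.0063), called in 29 of 29 settings, and 0.17 for knockout against control (edgeR adjusted p = 0.5). For transgenic against control Crem was the 1 called row of 9 tested on that list, where 5.23% of all rows were called higher. Between transgenic and knockout libraries 2 were called higher, where 6.34% of all rows were. These were Atf1, at a log2 fold change of 0.81 (edgeR adjusted p = 0.025), and Crem, at 0.46, whose call changed in 19 of 29 settings. None was called in knockout against control, where 0.881% of all rows were called higher and 1.01% lower. There, 1 row had an unadjusted p under 0.05, and DESeq2 and limma with voom called 0. Fos and Atf3 were at 0 in all libraries and Jun at 0 in nearly all.

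The NF-kB and IkB genes gave 13 tested rows, of which 3 were called higher in transgenic against control and none lower, where 5.23% of all rows were called higher and 2.17% lower. Bcl3 was called higher and Nfkbiz lower in transgenic against knockout, among 6.34% and 4.33% of all rows. EdgeR called 0 in knockout against control, where 0.881% and 1.01% of all rows were called higher and lower. In that comparison 3 had an unadjusted p under 0.05, DESeq2 called 1 and limma with voom 0. Bcl3, which codes for a nuclear IkB protein like that of Nfkbid, averaged 32.99 ± 6.41 CPM in transgenic (SD, n = 6), 8.4 ± 2.44 CPM in knockout (SD, n = 5) and 13.88 ± 3.64 CPM in control libraries (SD, n = 6). For Bcl3 the log2 fold change was 1.25 for transgenic against control (edgeR adjusted p = 1.6e-04) and -0.71 for knockout against control (edgeR adjusted p = 0.084). Penk was above control in both genotypes, whereas the Bcl3 mean of knockout libraries was below that of controls. Relb, which codes for an NF-kB subunit of the alternative pathway, had a log2 fold change of 0.44 for transgenic against control (edgeR adjusted p = 0.035), a call lost in 13 of 29 settings. Rela, the gene of the p65 subunit, averaged 70.19, 66.64 and 69.15 CPM in transgenic, knockout and control libraries.

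The row named Nfkbid, the altered gene, ranged over 7.04 to 11.06 CPM in transgenic, 2.24 to 8.31 CPM in knockout and 3.09 to 5.41 CPM in control libraries. It did not separate knockout from control libraries, it starts at 30.42 Mb, and whether it holds Nfkbid reads was not tested, so it does not check the knockout labels. The names of the groups are those of the labels throughout. Foxp3, which marks Tregs and starts at 7.57 Mb, ranged over 286.4 to 344.6 CPM in transgenic, 257.8 to 356.4 CPM in knockout and 325.8 to 369.7 CPM in control libraries, and passed the test in none of the 3 comparisons. Il2ra had 406 to 666 and Cd4 213 to 367 counts per library, while Cd3e had at most 11.

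On the list of the TNF receptor family, the 4 tested rows were Traf1, Traf2, Traf3 and Traf5, which are named for adaptors of the receptors. No receptor gene on the list passed the filter on low counts, so the receptors themselves were not tested. Of the 4 rows, 0 were called against control in either genotype. Over all rows, 5.23% were called higher in transgenic and 0.881% in knockout libraries. Unadjusted p was under 0.05 for 2 of the 4 in each of these comparisons, and DESeq2 and limma with voom called 0. Traf5 was called lower in transgenic against knockout. The gene codes for an adaptor of these receptors. Its level was 22.14 ± 3.65 CPM in transgenic (SD, n = 6) and 35.88 ± 9.08 CPM in knockout libraries (SD, n = 5), a log2 fold change of -0.70 (edgeR adjusted p = 0.0099). Without knockout replicates 2, 3 and 5 the log2 fold change was -0.26 and the call was lost, the only 1 of 29 settings to do so. Among 9 effector and tissue Treg rows, Il1rl1, the gene of the interleukin 33 receptor, was lower in transgenic against control (log2 fold change -0.60, edgeR adjusted p = 0.0017). Prdm1, which codes for the repressor Blimp-1, was lower in knockout against control (log2 fold change -1.82, edgeR adjusted p = 0.0014).

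Of 11 tested Treg identity rows, 4 were called higher and 1 lower in transgenic against control, where 5.23% and 2.17% of all rows were. In knockout against control 1 was called higher and 2 lower, where 0.881% and 1.01% of all rows were. One of the 2, Izumo1r, the gene of folate receptor 4, had a log2 fold change of -0.35 (edgeR adjusted p = 0.048), a call lost in 21 of 29 settings. The other, Entpd1, the gene of the ectonucleotidase CD39, had -1.55 (edgeR adjusted p = 0.01). Ikzf2, which codes for the Treg factor Helios, was higher than control in both genotypes. Its log2 fold change was 0.48 in transgenic (edgeR adjusted p = 0.021) and 0.53 in knockout libraries (edgeR adjusted p = 0.041), and the second call was lost in 18 of 29 settings. Transgenic against knockout was -0.05 (edgeR adjusted p = 0.87), where that of Penk was 1.33. Of 9 tested resting T cell rows, 0 were called higher and 1 lower in transgenic against control, with a median log2 fold change of -0.38. These counts are too small to read against the 5.23% and 2.17% of all rows. There, 3 had an unadjusted p under 0.05, DESeq2 called 2 and limma with voom 1. In knockout against control edgeR called 0 of them, 2 had an unadjusted p under 0.05, DESeq2 called 1 and limma with voom 0.

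Markers of other cell types were measured for 8 lists with 65 genes, of which 16 were tested and 19 were at 0 in every library. The B2m row is also at 0 in this table and Actb has at most 7 counts. A marker at or near 0 therefore does not show that its cells were absent. For transgenic against control 3 were called higher (Tyrobp, Ly6g and Slc4a1), where 5.23% of all rows were. In knockout against control 1 was called higher (Flt3), where 0.881% of all rows were. The summed NK cell markers ran from 430.0 to 802.3 CPM in transgenic, from 18.88 to 36.73 CPM in knockout and from 22.85 to 28.66 CPM in control libraries. Nearly all of it was the Tyrobp row, at 420.8 to 794.6 CPM in transgenic libraries. The Tyrobp row starts at 30.41 Mb of chromosome 7 and the row of Nfkbid, the altered gene, at 30.42 Mb, and which gene's reads it holds was not tested. The NK receptor gene Ncr1, in the first 10 Mb, had at most 0.839 CPM, and the perforin gene Prf1 at most 0.289 CPM.

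The summed erythroid markers ran from 61.57 to 120.9 CPM in transgenic, from 43.89 to 83.16 CPM in knockout and from 43.3 to 59.94 CPM in control libraries, with Hba-a1, Hbb-bs, Hbb-bt and Klf1 among those at 0. Slc4a1, the gene of the band 3 anion exchanger, had a log2 fold change of 0.68 for transgenic against control (edgeR adjusted p = 0.021), a call lost without transgenic replicate 1, control replicate 2 or control replicate 3. The summed neutrophil markers ran from 7.58 to 11.14, from 5.59 to 12.44 and from 4.99 to 7.87 CPM in the same order of groups, with S100a8, S100a9 and Retnlg at 0. Among them the Ly6g row had the order of Penk, with 3.23 to 7.42 CPM in transgenic, 1.4 to 3.71 CPM in knockout and 0 to 2.53 CPM in control libraries. Ly6g had a log2 fold change of 2.84 for transgenic against control (edgeR adjusted p = 0.0017), called in 29 of 29 settings, and 1.95 for knockout against control (edgeR adjusted p = 0.079). The summed dendritic cell markers ran from 72.49 to 86.98, from 83.38 to 93.8 and from 60.63 to 80.97 CPM, with Xcr1 and Batf3 at 0 and all knockout libraries above all controls. Most of the sum was the Zbtb46 row, which averaged 71.19 CPM in transgenic, 72.98 CPM in knockout and 66.66 CPM in control libraries. Flt3, a receptor gene of dendritic cell precursors, averaged 12.7 ± 5.14 CPM in knockout (SD, n = 5) and 4.79 ± 2.14 CPM in control libraries (SD, n = 6), a log2 fold change of 1.40 (edgeR adjusted p = 0.041) whose call was lost in 15 of 29 settings. The summed plasma cell markers ran from 332.8 to 557.6 CPM in transgenic, from 343.7 to 670.2 CPM in knockout and from 287.1 to 341.9 CPM in control libraries. All knockout libraries thus lay above the controls. Nearly all of the sum was the Xbp1 row, at 325.5 to 550.0 CPM in transgenic, 339.7 to 654.8 CPM in knockout and 276.8 to 334.3 CPM in control libraries. Of the 2 tested rows of the plasma cell list edgeR called 0 in any comparison. For knockout against control, 1 had an unadjusted p under 0.05, DESeq2 called 1 and limma with voom 0, and in the other comparisons none of these counts was above 0. The summed B cell, monocyte and CD8 T cell markers overlapped between all groups. The part of other cell types in the Penk levels was not tested.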

How the data were processed

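Per the labels' protocols, polyA RNA was sequenced with reads of 67 bp, a molecular identifier of 9 bp and about 27 M reads per library. The deposited values are expected counts per gene, which the name of the table credits to RSEM. The submitters' processing notes name Bowtie2, edgeR and GRCm38, with Ensembl 102 transcripts. Removal of duplicates by identifier is not stated. Of the deposited values 5.87% are not whole, and they were rounded for the tests. Totals were 3133388 to 4726615 per library.

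Of 47643 rows, 47224 matched a GENCODE M21 symbol, and filterByExpr kept 9986. Tests were made with edgeR 4.0.16 in R 4.3.3 (quasi-likelihood F test) with TMM factors, all 17 libraries in 1 fit, Benjamini-Hochberg adjustment over 9986 rows and a threshold of 0.05. The script was tested on simulated data. How animals were assigned to libraries is not stated, so a p-value covers only the spread among the libraries, which may be technical. Alternatives were DESeq2 1.42.0, limma 3.58.1 with voom, other scalings and filters, unrounded counts, fits of 2 groups, a replicate block and leaving out each library.

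Named rows were Penk, the 10 rows most like it by r (predicted and clone-named rows left out), rows called higher in all comparisons, tested rows within 1 Mb, and per list up to 4 called members with the smallest p, or the member with the smallest p. Some rows that the rule names are counted but not reported here. Other list members are named for their roles. Penk and the lists were chosen with earlier results of these data known. The displacement of rows and the split at 10 Mb were examined after seeing the data.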

Additional observations from a re-analysis of the deposited data

Results flagged for a closer look

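Within groups of 5 or 6 libraries, 13 of 162 sets of values had 1 library far from the others by Dixon's criterion, which chance meets in about 1 of 20 sets. The Penk row was not among them in any group. Transgenic replicate 1 accounted for 8 of the 13. Its TMM factor was 0.864, and its levels stood apart for Nfkbiz (251.5 CPM), Traf5 (29.37 CPM), Ikzf2 (265.3 CPM), Ctla4 (168.9 CPM), Cd79a (19.0 CPM), Xbp1 (550.0 CPM) and Slc4a1 (120.9 CPM). Its Penk level, 479.2 CPM, lay within the range of the other transgenic libraries.

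In transgenic replicate 5 the Ctss row stood apart at 25.17 CPM. In control replicate 1 the total of 4726615 counts and the Ogfrl1 row at 3.32 CPM stood apart. The Ly6g row stood apart in control replicate 2 at 2.53 CPM, and the Gzma row in control replicate 6 at 4.95 CPM.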

How the results depend on the processing

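The log2 fold changes of Penk kept their sign in 87 of 87 values under 29 settings. Penk was chosen for these differences and its groups do not overlap, so leaving out libraries could not change a sign. Of the 87 values, 85 lay within 0.317 of those reported, which is 1 SD of Penk log2 CPM among libraries within groups. The 2 that moved further came without knockout replicates 2, 3 and 5, an alternative added after seeing the data: 0.83 for knockout against control and 1.90 for transgenic against knockout. Over all settings Penk ranged from 2.66 to 2.81 for transgenic against control, 0.83 to 1.51 for knockout against control and 1.22 to 1.90 for transgenic against knockout. With the replicate block it was 2.72, 1.36 and 1.36. Replicate numbers did not pair the libraries: of 16 pairs 1 had a correlation over 0.1, and 2 of 17 libraries matched their own number best.

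Counts of called rows were less stable. For transgenic against control, 522 were higher and 217 lower. Fits of 2 groups alone gave 785 and 441, leaving out knockout replicates 2, 3 and 5 gave 879 and 469, and leaving out 1 library gave 389 to 596 and 140 (without control replicate 3) to 280, with 143 without transgenic replicate 5. For knockout against control, 88 were higher and 101 lower. The higher count was 49 with total counts alone, 223 with no filter, 305 with DESeq2, 50 with voom, 34 with 2 groups alone, 23 with the block, 10 without knockout replicates 2, 3 and 5, and 29 (without knockout replicate 5) to 592 (without knockout replicate 4) with 1 library left out. It was 289 without transgenic replicate 1, 448, 37 and 42 without knockout replicates 1, 2 and 3, and 34, 33, 38, 38 and 50 without control replicates 1, 3, 4, 5 and 6. The lower count was 348 with no filter, 268 with DESeq2, 42 with 2 groups alone, 44 with the block, 33 without knockout replicates 2, 3 and 5, and 55 (without control replicate 1) to 532 (without knockout replicate 4) with 1 library left out. It was 229 without transgenic replicate 1, 358, 61 and 59 without knockout replicates 1, 3 and 5, and 59 and 57 without control replicates 3 and 5. For transgenic against knockout, 633 were higher and 432 lower. The lower count was 203 with 2 groups alone, 214 with the block, 208 without knockout replicates 2, 3 and 5, and 262 (without transgenic replicate 6) to 826 (without transgenic replicate 1) with 1 library left out. It was 271 and 277 without transgenic replicates 4 and 5, and 649 and 269 without knockout replicates 4 and 5. The cause was not tested.

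Among 68 other named values, 13 of 1963 alternatives reversed. Without knockout replicates 2, 3 and 5, knockout against control was -0.027 for Pcsk2, 0.017 for Ctss, 0.75 for Eomes and -0.15 for Slc4a1. Transgenic against knockout was then -0.17 for Cd79a, 0.15 for Xbp1 and -0.54 for Cd8a. With 1 library left out, Eomes ranged from -0.597 to 0.004 for transgenic against control and from -0.773 to 0.011 for knockout against control, and Cd8a from -0.142 to 0.897 for transgenic against knockout. Crem for transgenic against control stayed called in 29 of 29 settings, while Nfkbid lost its call there in 15 and Relb in 13, and Nfkbiz for transgenic against knockout in 10. The opioid receptor rows, at 0 to 11 counts per library, could not be tested, and whether depth or displaced rows accounts for these counts was not tested.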
